A study of Mus musculus with 5 samples.

Results

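The core pluripotency factors examined here were 10 genes: Pou5f1, Nanog, Sox2, Sall4, Zfp42, Esrrb, Klf4, Tbx3, Tfcp2l1 and Dppa4. They were taken by name from the deposited count table, which holds 49671 genes, and each name was found in 1 row. RNA was sequenced from single post-implantation mouse embryos of a mixed strain background, 2 of them SO+ and 3 SO-. The SO+ embryos were WT; Sox2Cre-/-; Oct4 fl/+ and so carried no Cre, while the SO- embryos were Sox2Cre+/-; Oct4 fl/-. Both genotypes therefore carried a floxed Oct4 allele, beside an intact copy in SO+ and a null copy in SO-. Cre was driven by the Sox2 promoter, which acts in the epiblast, and its action was mosaic. Each library held RNA of the epiblast and of the surrounding visceral endoderm (VE) of 1 embryo, while the extra-embryonic ectoderm (ExE) had been dissected away. The comparison asked which of the factors hold their level when Oct4 is lost.

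Oct4, the product of Pou5f1, is a POU-domain protein that binds an octamer in DNA, often next to the HMG-box protein Sox2. With Nanog and Sall4 the pair occupies the regulatory regions of many genes active in pluripotent cells, their own genes included. Esrrb, Klf4, Tbx3, Tfcp2l1 and Zfp42 belong to the naive state of the preimplantation epiblast and of embryonic stem cells, and most of them are turned down as the epiblast implants. Dppa4 encodes a chromatin-associated protein of early embryos and germ cells.

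Total counts were 27538119 and 27047148 in the SO+ libraries and lay between 1117566 and 4191498 in the SO- libraries, so that the SO+ mean was 8.67 times the SO- mean. Levels are given as CPM, the count of a gene per 1e6 counts of its library. The least that 3 counts can show was 0.109 to 0.111 CPM in SO+ and 0.716 to 2.68 CPM in SO-, the last of these in SO- embryo 2, and these floors, like all counting intervals here, cover counting error only. The second index of the libraries differed by genotype, and so did depth, so that index, depth and genotype cannot be told apart. All 16 VE markers looked at were present in every library and summed to 5360 and 5572 CPM in SO+ and to 7596, 7803 and 5146 CPM in SO-. The 12 ExE markers summed to between 79.3 and 97.5 CPM across the 5 libraries, and the 22 formative and primed epiblast genes to between 3441 and 7184 CPM. Single genes weigh heavily in such sums, as Ets2 and Ddah1 did among the ExE markers and Dnmt3b among the epiblast genes. In bulk samples of this kind, fewer cells of a type and less RNA per cell cannot be told apart.

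Promoters are shown for the 3 factors whose window held the letters of an Oct4 site. RefSeq promoter windows on GRCm38.p6 were matched for 7 of the 10 factors, in 10 windows since some have more than 1 start, and the 250 bases before each start were searched on both strands for the octamer ATGCAAAT, the short octamer ATGCAAA that lies within it, and the Sox motif CATTGT. By window, the short octamer was found in 4 of the 10 (3 factors, with the overlapping windows of Nanog holding the same letters), against 4.13% of all 32851 windows of that length. The full octamer was found in 1 of the 10, against 1.60%, and the Sox motif in 3 of the 10 (both windows of Nanog and an alternative start of Pou5f1), against 10.7%. The windows are those of Nanog (chr6:122707239-122707488, + strand), Sox2 (chr3:34649745-34649994, + strand) and Zfp42 (chr8:43307010-43307259, - strand), written 5′ to 3′ on the gene's strand, with the motif letters in capitals.
Nanog: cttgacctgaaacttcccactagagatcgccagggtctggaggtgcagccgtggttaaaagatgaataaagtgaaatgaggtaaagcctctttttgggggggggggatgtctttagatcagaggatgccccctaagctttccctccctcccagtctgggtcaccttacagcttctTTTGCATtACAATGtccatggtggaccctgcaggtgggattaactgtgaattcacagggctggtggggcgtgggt
Sox2: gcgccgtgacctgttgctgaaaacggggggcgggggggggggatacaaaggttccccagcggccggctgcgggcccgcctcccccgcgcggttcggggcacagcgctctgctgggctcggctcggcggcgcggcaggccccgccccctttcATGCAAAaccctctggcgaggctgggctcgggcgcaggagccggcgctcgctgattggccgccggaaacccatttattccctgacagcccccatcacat
Zfp42: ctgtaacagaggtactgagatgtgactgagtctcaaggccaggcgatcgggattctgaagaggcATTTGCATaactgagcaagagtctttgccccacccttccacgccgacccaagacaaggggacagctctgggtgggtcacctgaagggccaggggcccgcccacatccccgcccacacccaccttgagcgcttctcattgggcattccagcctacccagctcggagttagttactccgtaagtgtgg
In Nanog the short octamer lay 75 to 69 bases before the start and the Sox motif 67 to 62 bases before it, both in the reverse complement and with 1 base between them. In Sox2 the short octamer lay 99 to 93 bases before its RefSeq start, which is upstream of the GENCODE M21 start at chr3:34650405. In Zfp42 the full octamer lay in the reverse complement, 186 to 179 bases before its RefSeq start, also upstream of the GENCODE M21 start at chr8:43306980. These matches are of letters only, and no binding was measured here.

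Of the 10 factors, 8 had enough counts to be tested and 1 changed. Pou5f1 fell in SO-, and the other 7 tested factors did not pass the threshold. The test was edgeR's quasi-likelihood test over 12067 genes with Benjamini-Hochberg adjustment, called at an adjusted p under 0.05, and fold changes are SO- over SO+ on the log2 scale. Across all tested genes 2.35% were called in either direction and 0.928% were called lower in SO-. The genotypes did not overlap in CPM for 3 of the 8 tested factors, against 29.5% of all tested genes. Pou5f1 was lower in every SO- embryo than in either SO+ embryo, whereas Sox2 and Tfcp2l1 were higher. The median log2 fold change was 0.09 over the 8 tested factors and -0.0019 over all tested genes.

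**Figure D1:**
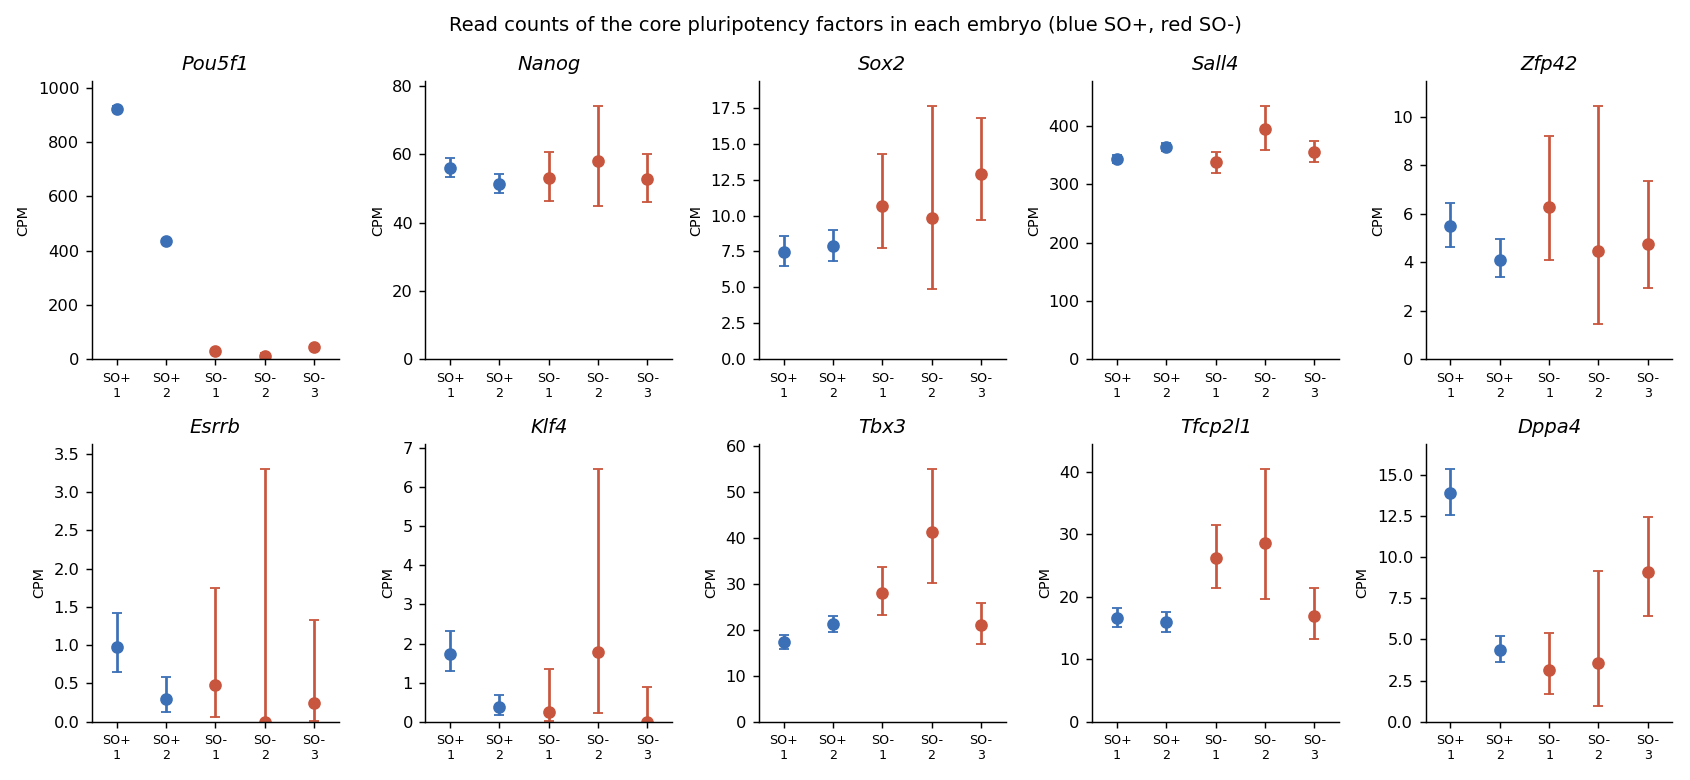
CPM of each of the 10 core factors (vertical axes, each from 0) in the 2 SO+ embryos (blue) and the 3 SO- embryos (red), with bars for the exact 95% binomial interval of the count. Pou5f1 falls from 920.2 and 435.3 CPM in SO+ to at most 43.7 CPM in SO-, while the SO- and SO+ values of Nanog and Sall4 overlap.

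Pou5f1 (ENSMUSG00000024406, chr17:35506018-35510772, + strand), the targeted gene, was measured first as a check of the genotypes. Its level was 920.2 and 435.3 CPM in SO+ embryos 1 and 2, and 27.8, 12.5 and 43.7 CPM in SO- embryos 1, 2 and 3. The SO- libraries thus held 4.10%, 1.85% and 6.44% of the SO+ mean, in the direction that the labels give. The mean was 678 ± 343 CPM (SD, n = 2) in SO+ and 28.0 ± 15.6 CPM (SD, n = 3) in SO-. The log2 fold change was -4.43 (SE 0.33, 95% interval -5.14 to -3.72, edgeR adjusted p = 3.94e-05), or 0.0464 times the SO+ level.

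Pou5f1 also varied within each genotype. The SO+ embryos differed 2.11-fold and the SO- embryos 3.49-fold, and the lowest SO- value, in embryo 2, rested on 14 counts. With limma-voom the adjusted p was 0.0639, and with edgeR's robust estimate of spread it was 0.0988, so that the call of Pou5f1 was lost under both while the fold change was kept. The longest annotated transcript of Pou5f1 has 5 exons, of which exon 1 (chr17:35506018-35506483) makes 466 of 1362 bases. This exon lies outside the floxed exons 2 to 5, and counts per gene do not separate it. Reads from recombined alleles and from cells that escaped recombination cannot be told apart.

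Nanog (ENSMUSG00000012396, chr6:122707489-122714633, + strand), a homeodomain factor of the pluripotent epiblast, was at nearly one level in all embryos. SO+ embryos 1 and 2 had 56.2 and 51.5 CPM, beside 53.2, 58.2 and 52.7 CPM in SO- embryos 1 to 3, so that the genotypes overlapped. The means were 53.8 ± 3.33 CPM (SD, n = 2) and 54.7 ± 3.01 CPM (SD, n = 3). SO- was over SO+ by a log2 fold change of 0.02 (SE 0.15, edgeR adjusted p = 0.982). Its 95% interval ran from 0.806 to 1.27 times the SO+ level.

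Sall4 (ENSMUSG00000027547, chr2:168748332-168767943, - strand), a zinc finger protein of the early epiblast, had the highest level of the factors after Pou5f1 in SO+. Its level was 343 and 364 CPM in SO+, and 338, 395.5 and 355 CPM in SO-. The SO- embryos thus spanned both SO+ values, with means of 353.5 ± 14.9 (SD, n = 2) and 363 ± 29.5 CPM (SD, n = 3). On the log2 scale the change was 0.04 (SE 0.10, edgeR adjusted p = 0.938), and the 95% interval of 0.877 to 1.20 times the SO+ level was the narrowest among the 8 tested factors.

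Sox2 (ENSMUSG00000074637, chr3:34650405-34652461, + strand), the usual DNA-binding partner of Oct4, was low in counts. It stood at 7.48 and 7.88 CPM in SO+ and at 10.6, 9.84 and 12.9 CPM in SO-. Every SO- embryo lay above both SO+ embryos, but SO- embryo 2 held only 11 counts, with an exact binomial interval of 4.91 to 17.6 CPM that takes in the SO+ values. With means of 7.68 ± 0.279 (SD, n = 2) and 11.1 ± 1.58 CPM (SD, n = 3), the log2 fold change was 0.56 (SE 0.34, edgeR adjusted p = 0.514), and the 95% interval allowed 0.894 to 2.45 times the SO+ level. The edgeR interval, which is set against the spread between embryos, thus took in no change. Relative to the summed totals, Sox2 in SO- was at 1.504 times the SO+ level, with an exact interval of 1.21 to 1.86. This second interval holds counting error only and leaves out the spread between embryos. Sox2ot, the non-coding gene that overlaps Sox2, had at most 12 counts in any library.

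**Figure D2:**
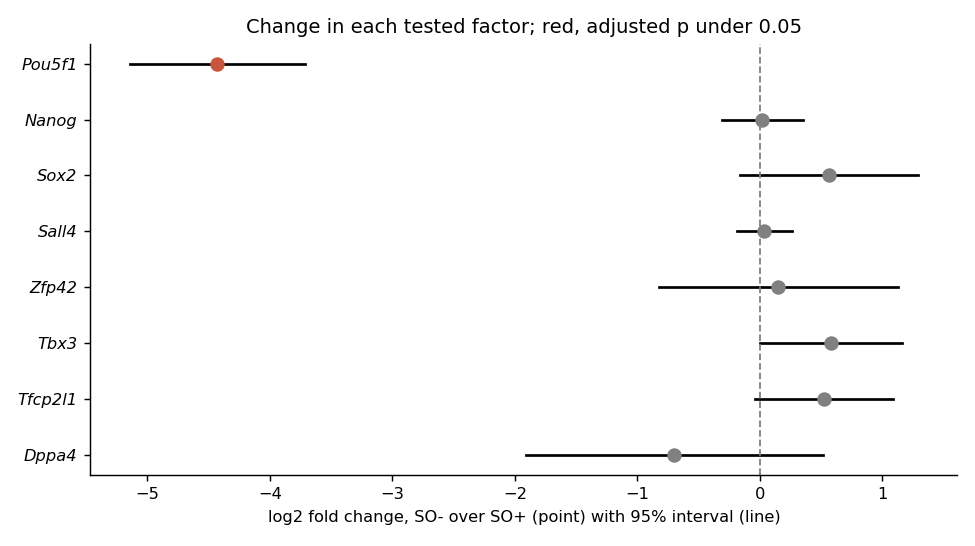
Log2 fold change of SO- over SO+ (points) with its 95% interval (lines) for the 8 tested core factors, in red where the edgeR adjusted p was under 0.05. Pou5f1 lies at -4.43 and is the only point in red, the interval of Tbx3 starts just above 0, and the intervals of Nanog and Sall4 are narrower than those of Sox2, Zfp42 and Dppa4.

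Among the naive factors, Tbx3 and Tfcp2l1 had the higher counts and leaned upwards without passing the test. Tbx3 (ENSMUSG00000018604, chr5:119670669-119684724, + strand), a T-box factor, had 17.2 and 21.1 CPM in SO+ and 28.1, 41.2 and 21.0 CPM in SO-. SO- embryo 3 lay between the SO+ embryos and the other two SO- embryos lay above both. With means of 19.2 ± 2.76 (SD, n = 2) and 30.1 ± 10.2 CPM (SD, n = 3), the log2 fold change was 0.58 (SE 0.27), with an unadjusted p of 0.0490 in edgeR's quasi-likelihood test and an adjusted p of 0.360. The 95% interval was 1.00 to 2.23 times the SO+ level.

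Tfcp2l1 (ENSMUSG00000026380, chr1:118627945-118685168, + strand), a grainyhead-related factor downstream of LIF signalling, had 16.6 and 15.9 CPM in SO+ and 26.1, 28.6 and 16.9 CPM in SO-. The genotypes did not overlap, although SO- embryo 3 was close to the SO+ embryos. The means were 16.2 ± 0.467 (SD, n = 2) and 23.9 ± 6.16 CPM (SD, n = 3), and the log2 fold change was 0.52 (SE 0.26, edgeR adjusted p = 0.409), and the 95% interval was 0.972 to 2.13 times the SO+ level.

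The summed VE markers moved with both genes, being high in SO- embryos 1 and 2 and at the SO+ level in SO- embryo 3. Per 1000 CPM of VE markers, Tbx3 stood at 3.22 and 3.80 in SO+ and at 3.69, 5.28 and 4.08 in SO-. On this scale the SO- mean was 1.24 times the SO+ mean, against 1.57 times for CPM. The corresponding ratios for Tfcp2l1 were 1.17 and 1.47. Sox2 stood at 1.40 and 1.41 per 1000 CPM of VE markers in SO+ and at 1.40, 1.26 and 2.503 in SO-, so that SO- embryos 1 and 2 were at or below the SO+ embryos on this scale and SO- embryo 3 was above them. Its ratio of means was 1.23 on this scale, against 1.45 for CPM. Nanog per VE markers was 0.835 times as high in SO- as in SO+, against 1.02 times for CPM. The VE sum was highest in SO- embryos 1 and 2, so dividing by it lowers their values against SO+ for every gene. All the ratios above fell in this way, that of Nanog included, so the fall is not specific to Tbx3 and Tfcp2l1. The part of the VE in these levels was not tested.

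**Figure D3:**
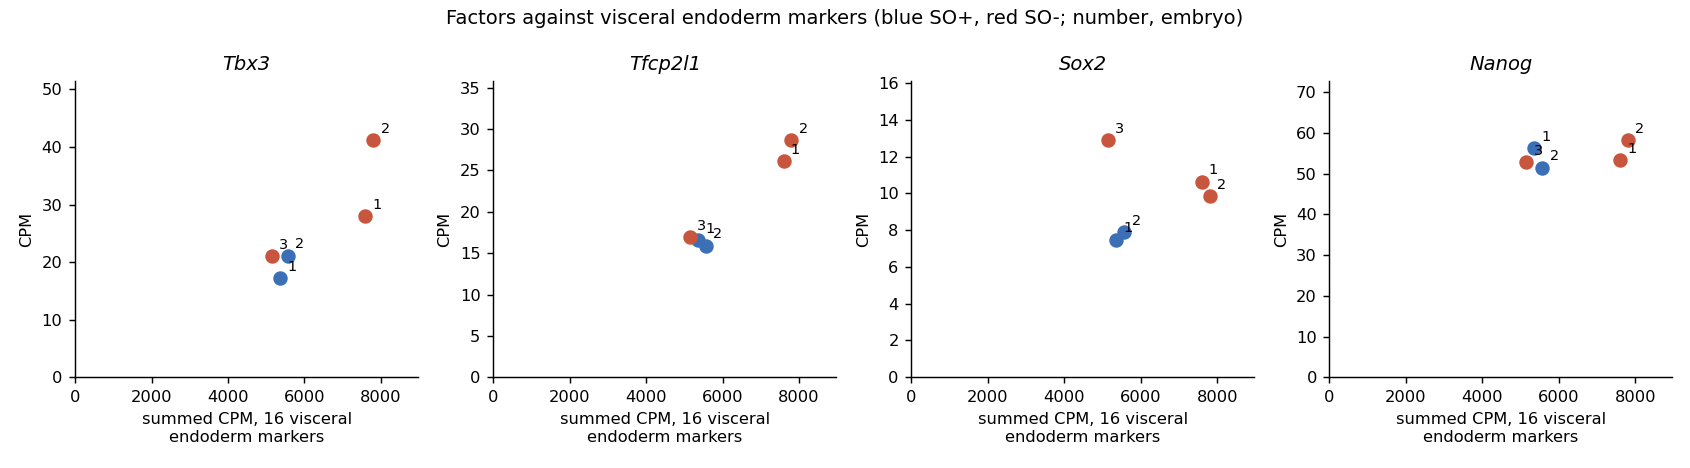
CPM of Tbx3, Tfcp2l1, Sox2 and Nanog (vertical axes) against the summed CPM of 16 VE markers (horizontal axes) in SO+ (blue) and SO- (red) embryos, numbered. SO- embryos 1 and 2 are high on both axes for Tbx3 and Tfcp2l1, while for Sox2 the highest embryo, SO- 3, has the lowest marker sum of 5146 CPM.

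Zfp42 (ENSMUSG00000051176, chr8:43295063-43306980, - strand), which encodes Rex1, was low in both genotypes. It had 5.48 and 4.10 CPM in SO+ and 6.29, 4.47 and 4.77 CPM in SO-, and the genotypes overlapped. The means were 4.79 ± 0.975 (SD, n = 2) and 5.18 ± 0.973 CPM (SD, n = 3), at a log2 fold change of 0.15 (SE 0.45, edgeR adjusted p = 0.942). With 5 counts in SO- embryo 2, the 95% interval of 0.565 to 2.18 times the SO+ level left a change of either sign possible.

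Esrrb and Klf4 had few counts in SO+, were at or near the floor in the SO- libraries, and were not tested. Esrrb (ENSMUSG00000021255, chr12:86361117-86521628, + strand), an orphan nuclear receptor, had 27 and 8 counts in SO+ and 2, 0 and 1 counts in SO-. Klf4 (ENSMUSG00000003032, chr4:55527143-55532466, - strand), a zinc finger factor used in reprogramming, had 48 and 10 counts in SO+ and 1, 2 and 0 counts in SO-. Each gene thus had 3 counts over all SO- libraries together. Relative to the summed totals this was 0.495 times the SO+ level for Esrrb (exact interval 0.0975 to 1.57) and 0.299 times for Klf4 (0.0599 to 0.918). The ratio of the mean CPM was 0.377 for Esrrb and 0.641 for Klf4, which was at 1.79 CPM in SO- embryo 2, from 2 counts, and at 1.74 CPM in SO+ embryo 1. These intervals hold counting error only, while the SO+ embryos themselves differed 3.31-fold for Esrrb and 4.71-fold for Klf4. Neither gene was called when the filter on low counts was left out, with edgeR adjusted p = 0.888 and 0.834.

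Dppa4 (ENSMUSG00000058550, chr16:48283733-48294237, + strand) was the other tested factor with a negative fold change, beside Pou5f1. Its level was 13.9 and 4.36 CPM in SO+, and 3.14, 3.58 and 9.07 CPM in SO-. The SO+ embryos differed 3.18-fold and SO- embryo 3 lay between them, so that the genotypes overlapped. From means of 9.12 ± 6.72 (SD, n = 2) and 5.26 ± 3.30 CPM (SD, n = 3), the log2 fold change was -0.70 (SE 0.56, 95% interval -1.91 to 0.52, edgeR adjusted p = 0.672), and it turned to 0.35 when SO+ embryo 1 was left out. Dppa2, its neighbour and paralog, had 67 and 30 counts in SO+ and 0, 1 and 4 counts in SO-, too few to be tested. In CPM this was 2.43 and 1.11 in SO+ and 0, 0.895 and 0.954 in SO-, at or near the floor in SO-.

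The 4 factors Pou5f1, Dppa4, Esrrb and Klf4 had in common that SO+ embryo 1 was at least 2.11-fold above SO+ embryo 2. Nanog, Sox2 and Sall4 differed between these embryos by far less, as their values above show. Of the first group only Pou5f1 had genotypes that did not overlap.

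Levels of different factors were compared per kilobase of exon. In SO+, Pou5f1 came first at a mean of 301.5 CPM per kb, followed by Sall4 at 63.9 and Nanog at 24.0. Dppa4, Sox2, Tbx3, Zfp42 and Tfcp2l1 followed between 5.49 and 1.72 CPM per kb, in an order that changed from embryo to embryo, and Klf4 and Esrrb were last at 0.346 and 0.106. In SO- Sall4 was first at 65.6 CPM per kb and Nanog next at 24.4, in each of the 3 embryos. Pou5f1 was at a mean of 12.5 CPM per kb, at rank 3 in SO- embryos 1 and 3 and rank 4 in embryo 2, where Tbx3 stood above it.

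The summed level of the 10 factors was 516 and 296 CPM per kb in SO+ and 115, 122 and 126 CPM per kb in SO-. Without Pou5f1 the sums were 107 and 102.4 in SO+ and 102.3, 116.5 and 107 in SO-, so that the genotypes overlapped. Pou5f1 made 79.3% and 65.4% of the sum in the SO+ embryos, but 10.8%, 4.56% and 15.4% in the SO- embryos. The share of Sall4 was 12.0% and 22.2% in SO+ and 53.2%, 58.5% and 50.8% in SO-. Among all genes with a count in an embryo, Sall4 stayed between percentiles 95.5 and 96.2 and Nanog between percentiles 88.5 and 89.7. Pou5f1 went from percentiles 99.5 and 98.7 in SO+ to 81.6, 70.9 and 86.96 in SO-.

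**Figure D4:**
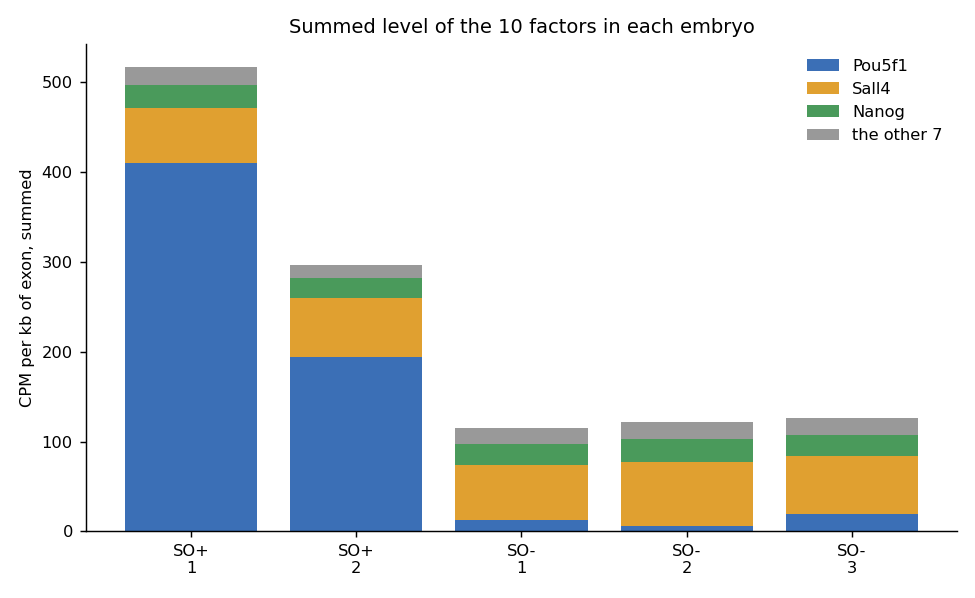
Summed CPM per kb of exon of the 10 core factors in each embryo (bars from 0), divided into Pou5f1, Sall4, Nanog and the other 7. The sum falls from 516 and 296 in SO+ to between 115 and 126 in SO-, and the parts other than Pou5f1 are alike in height in all 5 embryos.

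Genes that often act with the core factors were then counted from the same fit. Of 22 formative and primed epiblast genes, which mark the epiblast after implantation, 20 were tested, 5 were called lower and 0 higher, with a median log2 fold change of -0.32. The list did not move as one, since 5 of the 20 had a positive value. The highest was Fgf5 at 0.38 (edgeR adjusted p = 0.274), while Lin28a and Lin28b stood at 0.06 and -0.05. L1td1, an RNA-binding protein gene of pluripotent cells, had 155 and 126 CPM in SO+ and 41.1, 30.4 and 42.0 CPM in SO- (log2 fold change -1.84, SE 0.16, edgeR adjusted p = 1.25e-04). Utf1, a chromatin factor, had 511 and 393 CPM in SO+ and 92.9, 65.3 and 149 CPM in SO- (log2 fold change -2.08, SE 0.23, edgeR adjusted p = 4.06e-04). For both genes the genotypes were far apart in every embryo. Foxd3, a forkhead repressor, fell by 3.16 on the log2 scale (SE 0.67, edgeR adjusted p = 0.0261), and it had no count in SO- embryo 1.

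The de novo DNA methyltransferase genes Dnmt3b and Dnmt3a were also lower. Dnmt3b had 3983 and 3263 CPM in SO+ and 1708, 1447 and 2286 CPM in SO- (log2 fold change -0.99, SE 0.15, edgeR adjusted p = 0.00392). Dnmt3a fell by 0.73 on the log2 scale (SE 0.17, edgeR adjusted p = 0.0424). The calls of L1td1 and Utf1 were kept with any single embryo left out, at adjusted p of up to 0.0148 and 0.0364. Those of Dnmt3b, Foxd3 and Dnmt3a were lost without SO- embryo 1 or SO- embryo 2, with adjusted p of up to 0.122, 0.265 and 0.364, and that of Dnmt3a also without SO+ embryo 1. With the robust fit L1td1 kept its call and the other 4 genes lost theirs, at adjusted p between 0.0527 and 0.150. Foxd3 was also not called with DESeq2 (adjusted p = 0.460) or limma-voom (0.224), nor Dnmt3a with limma-voom (0.167). The count of 5 became 8 without SO+ embryo 2. The VE markers moved the other way in SO- embryos 1 and 2, at VE sums of 7596 and 7803 CPM. Their formative and primed sums were 3854 and 3441 CPM, against 7184 and 6236 CPM in SO+. Dnmt3b alone made 1708 and 1447 CPM of the former and 3983 and 3263 CPM of the latter. These sums thus largely follow 1 called gene and do not stand for the list as a whole. SO- embryo 3 was lower than both SO+ embryos in both sums. Its VE sum was 5146 CPM, beside 5360 and 5572 CPM in SO+, and its formative and primed sum was 4787 CPM. The part of the VE was not tested.

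Of 20 other genes, placed by hand on a list of naive pluripotency genes, 11 were tested and 0 were called by edgeR, with a median log2 fold change of -0.06. At an unadjusted p under 0.05 there were 3, and 1 was called with DESeq2, 0 with limma-voom, 1 with the robust fit, 2 without SO+ embryo 2 and 3 with the replicate block. The highest of them, the Nodal co-receptor gene Tdgf1, had 471 and 414 CPM in SO+ and 354, 323 and 322 CPM in SO-. All SO- embryos lay below the SO+ embryos, but the log2 fold change of -0.40 (SE 0.10, edgeR adjusted p = 0.0669) did not pass the threshold. Dppa5a and the LIF receptor gene Lifr had log2 fold changes of -0.06 and -0.14, with overlapping genotypes. Fgf4, an epiblast ligand gene picked out after its values were seen, had 9.44 and 7.84 CPM in SO+ and 1.45, 1.79 and 4.53 CPM in SO-. The genotypes did not overlap for Fgf4, and its log2 fold change of -1.63 (SE 0.50, edgeR adjusted p = 0.140) did not pass the threshold.

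All 24 genes for Oct4 partner proteins and cofactors were tested, and 0 were called by edgeR, at a median log2 fold change of -0.13. There were 3 at an unadjusted p under 0.05, and 0 were called with DESeq2 or limma-voom and 2 with the replicate block. Trim28, the corepressor with the highest level among them, was at 1997 and 2093 CPM in SO+ and at 1795, 1781 and 1758 CPM in SO- (log2 fold change -0.20, SE 0.08, edgeR adjusted p = 0.282). The SWI/SNF subunit gene Smarcc1 and the poly(ADP-ribose) polymerase gene Parp1 had log2 fold changes of 0.05 and -0.13.

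Among 18 paralogs of the core factors, 11 were tested and 1 was called. Sall1, a relative of Sall4, had 66.2 and 98.5 CPM in SO+ and 130.1, 175 and 143 CPM in SO- (log2 fold change 0.84, SE 0.18, edgeR adjusted p = 0.0256). The call was lost when any 1 of SO+ embryo 1, SO- embryo 1, SO- embryo 2 or SO- embryo 3 was left out, with adjusted p of up to 0.265, and with limma-voom, at 0.152. Without SO+ embryo 2, or without SO- embryo 3, 2 paralogs were called, and 3 with the replicate block.

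**Figure D5:**
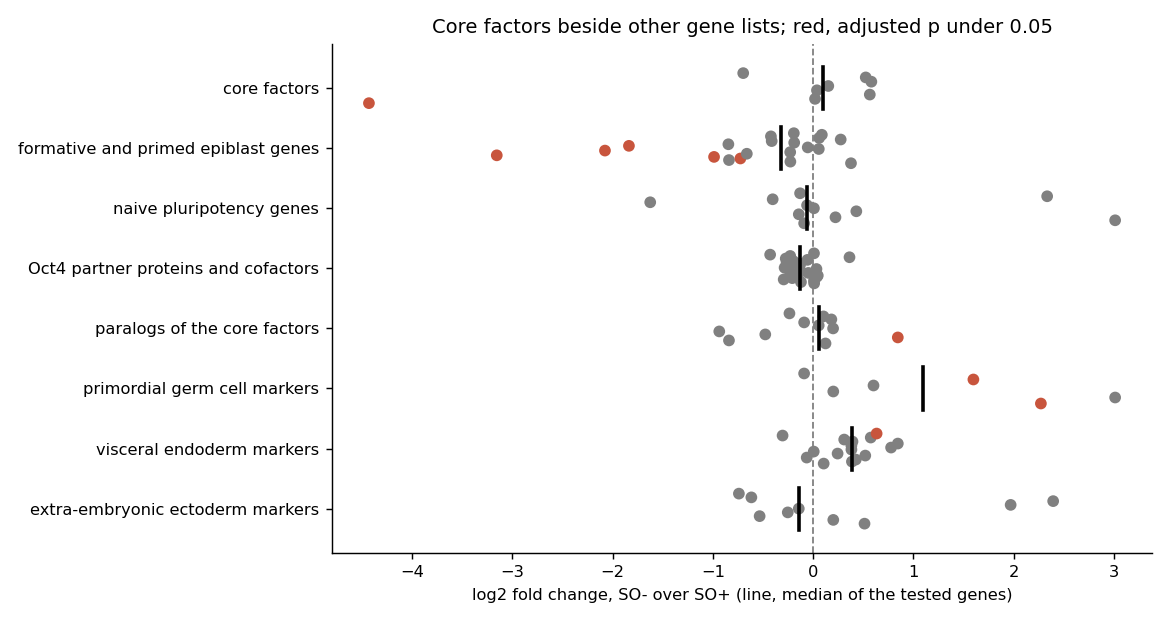
Log2 fold change of SO- over SO+ for each tested gene of the core factors and of 7 other lists (points, in red at an edgeR adjusted p under 0.05), with the median of each list as a black line. The median is 0.09 for the core factors and -0.32 for the formative and primed epiblast genes, 5 of which are in red on the lower side.

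Of 16 VE markers, all tested, 1 was called higher and 0 lower, at a median log2 fold change of 0.38, and 14 of the 16 had a positive value. The called gene was Spink1, a trypsin inhibitor, at a log2 fold change of 0.63 (SE 0.10, edgeR adjusted p = 0.00580), and its call was lost without SO- embryo 1 or SO- embryo 2, at adjusted p of up to 0.0903. The number of VE markers called became 0 without either of these embryos and 6 without SO+ embryo 2 or without SO- embryo 3, and it was 11 with the replicate block. Of 12 ExE markers 9 were tested and 0 were called by edgeR, at a median of -0.14, with 3 at an unadjusted p under 0.05. DESeq2 called 2 of them and limma-voom 0, and 1 was called without SO+ embryo 2. The highest of them, Ets2, Ddah1 and Plet1, had log2 fold changes of -0.14, -0.74 and 1.97, with edgeR adjusted p of 0.824, 0.174 and 0.0605. Plet1 was at 2.22 and 4.18 CPM in SO+ and at 8.22, 20.6 and 11.2 CPM in SO-. Gata3 was at 0.726 and 1.18 CPM in SO+ and at 2.66, 10.7 and 3.82 CPM in SO-. Its log2 fold change was 2.39 (SE 0.76, edgeR adjusted p = 0.148). Of the 9 tested ExE markers 4 had a positive value.

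The genes whose log2(CPM + 1) over the 5 embryos was most like that of a core factor were sought among 9305 tested genes, as a description over 5 points that share libraries and depth. For Pou5f1 they were Ranbp3 (Pearson r = 0.999), Prps1 (0.998) and Car14 (0.998). For Nanog, which hardly varied, they were Stk38l (0.994), Celf2 (0.992) and Lin37 (0.987).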

How the data were processed

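Libraries were prepared by the authors with SmartSeq2 from 1 ng of RNA, with 15 cycles of pre-amplification and polyA selection and without molecular identifiers. The authors trimmed the reads with cutadapt, aligned them to GRCm38/mm10 with STAR, and ran HTSeq-count on the genes of Ensembl 87. They deposited raw counts, without normalization. Use of strand in counting is not given in the sources used here. How reads in the overlap of a gene and its antisense partner were counted or set aside is therefore not known. Antisense and overlapping genes of Pou5f1 and Sall4 had at most 4 counts in any library. Coordinates and exon lengths were taken from GENCODE M21 (GRCm38), where 99.5% of the genes were found.

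The 5 embryos were grouped by the genotype in the labels. They come from separate embryos. The tests set each difference against a spread between embryos that edgeR estimates in part from the other tested genes. The p-values and intervals therefore do not rest on the 5 values of a gene alone. Genes kept by filterByExpr were scaled by TMM and tested in edgeR 4.0.16 (R 4.3.3), with genotype as the only term and Benjamini-Hochberg adjustment. The SE was calculated as the size of the log2 fold change over the square root of its F statistic. In an exact permutation test of 1 value, 2 embryos against 3 could not go below p = 0.1 (two-sided). Alternatives were DESeq2 1.42.0, limma-voom (limma 3.58.1), other scalings and filters, thinned counts, a robust fit, a replicate block and each embryo left out. The level per summed VE markers was added after the data were seen.

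The members and gene lists were chosen with earlier results of these data known. Some genes stand in more than 1 list. The genes named were all members, the called genes of each list, or otherwise the 3 with the highest mean CPM, and the 3 most like Pou5f1 and Nanog at a mean log2 CPM of 3 or more. Dppa2, Sox2ot, Fgf4 and Gata3 were named after their values were seen, outside this rule. So were Fgf5, Lin28a, Lin28b, Mixl1, Mesp1 and the uncalled or untested germ cell markers. The result of 1 further list is not reported here. The fits were tested on simulated data.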

Additional observations from a re-analysis of the deposited data

How the results depend on the processing

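The number of genes called, 283 by edgeR, was 381 with DESeq2, 91 with limma-voom, 929 with the replicate number as a block, and between 35 and 573 with 1 embryo left out (35 when SO- embryo 2 and 46 when SO- embryo 1 was the one left out, and 573 for SO+ embryo 2). Of the core factors 1 was called, against 0 with limma-voom and with the robust fit, 2 with the replicate block and 1 with any embryo left out. Pou5f1 kept its direction throughout, at -4.35 with limma-voom, -4.43 with the robust fit and between -4.87 and -3.80 with an embryo left out. Nanog, at 0.02, changed sign to -0.015 without the filter on low counts, -0.0037 with SO+ thinned to the SO- depth and -0.034 with all libraries thinned, and lay between -0.044 and 0.074 with an embryo left out. The corresponding ranges were -0.020 to 0.081 for Sall4, -0.042 to 0.365 for Zfp42 and -1.47 to 0.35 for Dppa4. Sox2 and Tfcp2l1 kept direction and stayed uncalled in all 16 alternatives. Per summed VE markers, the ratio of SO- to SO+ means was 1.23 for Sox2 and 0.835 for Nanog. That ratio also moves with the VE marker sum of a library, so it is not another measure of the level of any gene. With the block Tbx3 was called, at 0.82 (adjusted p = 0.0404). Same-numbered embryos are different animals, their deviations correlated at 0.0154 and 0.112, and the numbers were not taken to pair the samples. SO- embryo 3 has no same-numbered SO+ embryo, so with the block it does not enter the genotype difference. Of the formative and primed epiblast genes, 5 in the main test, 1 was called with the robust fit, 3 with limma-voom, 11 with the block and 2 without SO- embryo 1 or SO- embryo 2. The least deep library, SO- embryo 2, held between 0 and 11 counts of Esrrb, Klf4, Dppa4, Zfp42 and Sox2.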

Other observations

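Markers of other embryonic cell types were read from the same fit. Of 8 primordial germ cell markers 6 were tested and 2 were called higher in SO-. The 4 not called were Prdm14, Kit, Tfap2c and Dnd1, at log2 fold changes of 3.01, 0.60, 0.20 and -0.09. Dppa3 and Nanos3 had too few counts to be tested. Prdm1, the gene of the repressor Blimp1, was at 6.06 and 7.84 CPM in SO+ and at 38.5, 43.8 and 21.2 CPM in SO- (log2 fold change 2.27, SE 0.31, edgeR adjusted p = 0.00201). Ifitm3, an interferon-induced membrane protein gene, was at 11.9 and 19.9 CPM in SO+ and at 54.2, 63.5 and 31.0 CPM in SO- (log2 fold change 1.60, SE 0.30, edgeR adjusted p = 0.0134). Both genes were highest in SO- embryos 1 and 2, the libraries in which the summed VE markers were also highest, and the part of the VE was not tested. Both calls were lost without either of these embryos, at adjusted p of up to 0.0820 for Prdm1 and 0.215 for Ifitm3, and that of Ifitm3 also with limma-voom, at 0.100. With the replicate block 4 of these markers were called.

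Of 13 primitive streak and nascent mesoderm markers 12 were tested and 1 was called, at a median log2 fold change of 0.18 with 8 positive values. Mixl1 and Mesp1 had negative values of -0.44 and -0.61 and were not called. The called gene was the ligand gene Fgf8, at 138 and 123 CPM in SO+ and 306, 333 and 295 CPM in SO- (log2 fold change 1.26, SE 0.11, edgeR adjusted p = 1.25e-04). Its call was kept with any embryo left out, at adjusted p of up to 0.0150, while the number of markers called became 3 without SO+ embryo 1, 4 without SO+ embryo 2 and 5 with the replicate block. Of 12 maternal, decidual and blood markers 2 were tested and 0 were called by edgeR, DESeq2 or limma-voom, with 1 at an unadjusted p under 0.05 (Des at a log2 fold change of 0.42 and Pgr at 1.503, edgeR adjusted p = 0.679 and 0.267), Dcn had at most 4.62 CPM, and the list summed to between 12.4 and 18.9 CPM in the 5 libraries.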
